A study of Homo sapiens with 12 samples.

Results

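The endoplasmic reticulum (ER) genes described here were 39 named genes of the unfolded protein response and of the protein folding machinery it serves: its sensors and transcription factors, the chaperones, the enzymes that form disulfide bonds, the genes of ER-associated degradation, and genes of protein entry, export and the ER membrane. They were listed by name, with earlier results of these data known, from 34290 genes with at least 1 transcript in the matched annotation. The question put to them was whether ER stress accompanied the response to ML60218. All 39 were found and all 39 passed the filter on low counts in both comparisons, with between 367 reads (EDEM2) and 47822 reads (HSP90B1) per member and library. Their summed level was 0.235% to 0.301% of all deposited TPM, a level corrected for transcript length and library size.

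The 12 mRNA libraries came from HEK293T, a human embryonic kidney cell line, in 4 groups of 3. In 1 experiment cells were harvested 2 days after transfection with the siControl siRNA or with siPOLR3A, which targets the mRNA for the largest subunit of RNA polymerase III (POLR3A). In the other, cells received the vehicle DMSO at 0.1% or ML60218, a small-molecule inhibitor of RNA polymerase III, at 25 µM, and were collected after 4 hours. Agent, duration and control thus differed together between the experiments. Nothing in the labels says that the 3 libraries of a group came from separate cultures, so p-values measure only the spread between these libraries, which may be technical.

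The libraries held 37008325 to 49479476 estimated reads each. POLR3A itself fell with the siRNA (log2 fold change -2.36 ± 0.11 SE, edgeR quasi-likelihood test, Benjamini-Hochberg adjusted p = 1.94e-05) and fell less with the inhibitor (-0.38 ± 0.04, adjusted p = 0.000232). LIN28B, SALL2 and NEFM, which HEK293T cells express, were present in every library (at the lowest 61.6 CPM, for SALL2; CPM is the read count scaled to library size), the leukocyte gene PTPRC was at 0 in all 12, and the liver gene ALB had at most 6 reads. The collagen gene COL1A1, listed as a gene this line should lack, was nonetheless present at 23.6 to 37 CPM.

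The ER folds secreted and membrane proteins, and 3 sensors in its membrane report when unfolded protein accumulates there. IRE1 (gene ERN1) cuts a short intron out of XBP1 mRNA in the cytosol, which shifts the reading frame and yields the active transcription factor. ATF6 travels to the Golgi, where proteases release its transcription factor domain. PERK (gene EIF2AK3) phosphorylates the translation factor eIF2α, which lowers general translation and raises that of ATF4. Other kinases phosphorylate the same site, and the shared output is called the integrated stress response. ATF6 and spliced XBP1 bind short promoter elements and raise chaperones such as HSPA5 (BiP), disulfide isomerases and degradation genes, so HSPA5, DNAJB9, SDF2L1 and HERPUD1 are widely used as transcript markers of ER stress.

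The stretch by which the spliced and unspliced forms of XBP1 differ is shown first. It lies in a coding exon of XBP1 on the minus strand of chromosome 22 (GRCh38, chr22:28796095-28796174 for the window printed). Capitals mark 26 bases that the unspliced form keeps and the spliced form lacks, placed as the annotation places the gap. Because the flanking bases repeat, 7 placements give the same spliced sequence, so the capitals do not mark the exact cut sites.
XBP1 unspliced form: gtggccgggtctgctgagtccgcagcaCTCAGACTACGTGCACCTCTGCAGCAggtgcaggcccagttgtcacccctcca
XBP1 spliced form: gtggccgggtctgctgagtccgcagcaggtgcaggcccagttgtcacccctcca
The unspliced main transcript encodes 261 residues and the spliced one 376, because losing the stretch changes the frame.

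The promoter elements of the response were searched on both strands in the RefSeq windows of 250 bases before to 50 bases after each gene's start (GRCh38.p14), which matched 36 of the 39 members. DERL1, PDIA3 and SEC24D had no window. The ER stress response element (ERSE, CCAAT, then 9 bases, then CCACG), which ATF6 and NF-Y bind together, was found in 7 of the 36, against 0.124% of 15317 protein-coding promoters. ERSE-II (ATTGG, 1 base, CCACG) was found in 3, against 0.0783%. The windows of members that the results turn on are printed 5′ to 3′ on the gene's strand, with the CCAAT and CCACG boxes (or their complements) in capitals.
HSPA5 ERSE (chr9:125241381-125241419, minus): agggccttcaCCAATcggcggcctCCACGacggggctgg
HSP90B1 ERSE, first copy (chr12:103930206-103930244, plus): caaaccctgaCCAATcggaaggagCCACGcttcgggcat
HSP90B1 ERSE, second copy (chr12:103930311-103930349, plus, opposite orientation): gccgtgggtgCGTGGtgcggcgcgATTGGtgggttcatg
CALR ERSE (chr19:12938374-12938412, plus, opposite orientation): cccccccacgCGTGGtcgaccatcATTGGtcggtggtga
CRELD2 ERSE (chr22:49918544-49918582, plus, opposite orientation): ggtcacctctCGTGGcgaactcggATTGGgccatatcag
SDF2L1 ERSE-II (chr22:21642104-21642134, plus, opposite orientation): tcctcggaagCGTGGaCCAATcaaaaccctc
XBP1 ERSE (chr22:28800593-28800631, minus): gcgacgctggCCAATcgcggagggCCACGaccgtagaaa

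HERPUD1 was the only one of the 36 windows that also held a C/EBP-ATF response element (CARE, TGATGNAAC or TGATGNAAT), the element that ATF4 and its partners bind. That element was present in 1.19% of all protein-coding promoters. Its window is shown because HERPUD1 rose in both experiments. Capitals mark the CARE (on the opposite strand) and then the ERSE-II.
HERPUD1 CARE and ERSE-II (chr16:56931955-56932045, plus): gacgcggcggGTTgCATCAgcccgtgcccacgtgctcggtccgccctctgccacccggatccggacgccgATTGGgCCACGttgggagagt

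ERO1B and CANX also held an ERSE, and HYOU1 held 2 copies of ERSE-II. The XBP1-type element TGACGTGG was found in DNAJC10, HYOU1 and TXNDC11, against 0.849% of promoters, and in HYOU1 it overlaps 1 of the ERSE-II copies. The ACGTG core alone was found in 15 of 36 windows, against 23.8% of promoters. A match is a description of letters in this window, not a bound site.

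**Figure D1:**
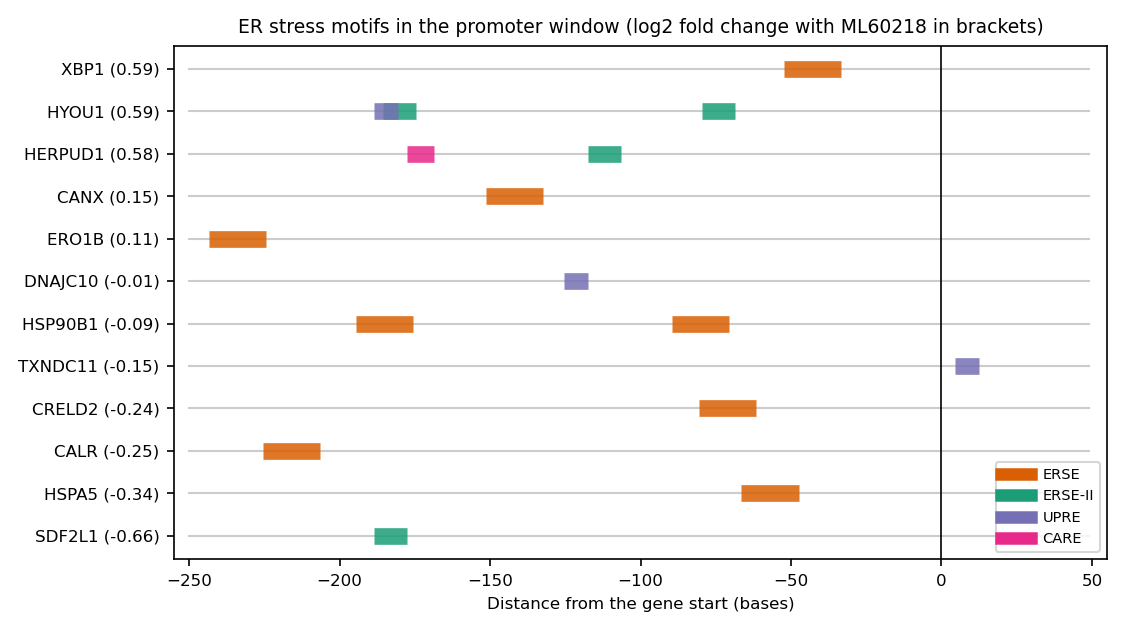
Position of each motif match relative to the gene start (horizontal axis, bases) in the 12 members with a match to ERSE, ERSE-II, UPRE (TGACGTGG) or CARE, ordered by log2 fold change with ML60218 (in brackets). Members with an ERSE or ERSE-II appear both at the top (XBP1 0.59, HERPUD1 0.58) and at the bottom (HSPA5 -0.34, SDF2L1 -0.66).

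The first comparison asked how the ER genes stood after 4 hours of ML60218. ERN1, ATF6, XBP1 and CREB3L2 rose, genes of the Hsp70 system and of disulfide formation fell or did not pass the test, the lectin chaperones were divided, and HERPUD1 and SEL1L rose among the degradation genes. In all, 9 of 39 members were called higher and 18 lower at an adjusted p under 0.05, and 12 were not called. Over all 15451 genes tested, 39% were called, 18.1% higher and 20.9% lower. The members' share of higher calls (23.1%) was thus near that of all genes and their share of lower calls (46.2%) above it. These shares were not matched for level. Even the least abundant member, ERN1, had a mean TPM above that of 57.57% of genes with any TPM. No member changed 2-fold, and the members' median log2 fold change was -0.12, beside 0.01 over all genes. Treated and control libraries did not overlap in 51.89% of all genes tested. Groups that lie apart, as given below for single members, were thus common.

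The 4 sensors and transcription factors were all higher. ERN1, the kinase and nuclease IRE1, stood at 20.5, 20.1 and 19.1 CPM in DMSO and at 27.8, 30.1 and 32.6 CPM in ML60218. All 3 treated libraries lay above all 3 controls, which gave ERN1 a rise of 0.60 ± 0.07 on the log2 scale (SE, adjusted p = 0.000238). XBP1 stood at 110, 108 and 115 CPM against 145, 173 and 183 CPM, with ML60218 replicate 1 the lowest of the treated libraries and still above every control (0.59 ± 0.08, adjusted p = 0.00243).

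ATF6 rose less, from 63.0, 60.2 and 59.9 CPM to 75.0, 65.0 and 73.6 CPM. The groups did not overlap, though ML60218 replicate 2 came close to the controls (0.22 ± 0.06, adjusted p = 0.0102). CREB3L2, an ATF6-related membrane-bound transcription factor, was higher by 0.12 (adjusted p = 0.0406), a call lost in 7 of 15 alternative analyses. Per length, ERN1 was the least abundant member in these cells, at a mean of 4.62 TPM over the 12 libraries, and XBP1 stood at 99.7 TPM.

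The Hsp70 system and its companions moved the other way or not at all: 7 of 10 were called lower and none higher. HSPA5, the ER Hsp70 BiP that holds the sensors inactive, lies on chromosome 9 (125234853 to 125241330, minus strand). It stood at 390, 382 and 376 CPM in DMSO and at 314, 317 and 277 CPM in ML60218. Every treated library lay below every control (-0.34 ± 0.05, adjusted p = 0.00107).

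SDF2L1, which keeps BiP and its cochaperones working on unfolded chains, fell most of all members. It went from 19.7, 18.4 and 15.3 CPM to 11.6, 10.8 and 11.3 CPM (-0.66 ± 0.09, adjusted p = 0.000653). MANF, a secreted ER stress protein that binds BiP, went from 52.7, 52.8 and 55.4 CPM to 43.0, 41.2 and 37.8 CPM (-0.40 ± 0.05, adjusted p = 0.00054). Neither gene's groups overlapped.

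DNAJB9, an ER J-domain protein that returns BiP to IRE1 and is a standard XBP1 target, was at 17.2, 17.4 and 17.3 CPM in DMSO and at 13.3, 14.6 and 14.9 CPM in ML60218 (-0.27 ± 0.06, adjusted p = 0.00731). All treated libraries were lower than the controls. CRELD2 (-0.24), DNAJB11 (-0.14) and HSP90B1 (-0.09, the ER Hsp90) were the other lower calls, with adjusted p of 0.0165, 0.00573 and 0.039. On deposited TPM 3 of the 10 were lower (HSPA5, MANF and SDF2L1) and 1 higher (HYOU1), with DNAJB11 and HSP90B1 at 0.00461 and 0.0278. Besides this change of sign on TPM, the call was lost in 7 of 15 alternatives for HSP90B1 and in 1 for DNAJB11. It was lost in 4 for CRELD2 and in 1, on TPM, for DNAJB9. DNAJC3 (0.05, adjusted p = 0.326) and DNAJC10 (-0.01, adjusted p = 0.893) were not called.

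HYOU1, an Hsp110-type partner of BiP, was not called in the analysis reported, although its estimate was among the highest (0.59 ± 0.22, adjusted p = 0.0965). On deposited TPM it was called higher. Its libraries stood at 41.7, 34.2 and 33.2 CPM in DMSO and 62.8, 61.4 and 40.3 CPM in ML60218, so that ML60218 replicate 3 lay within the control range. About 61.1% of its reads fell on transcripts matched by identifier.

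**Figure D2:**
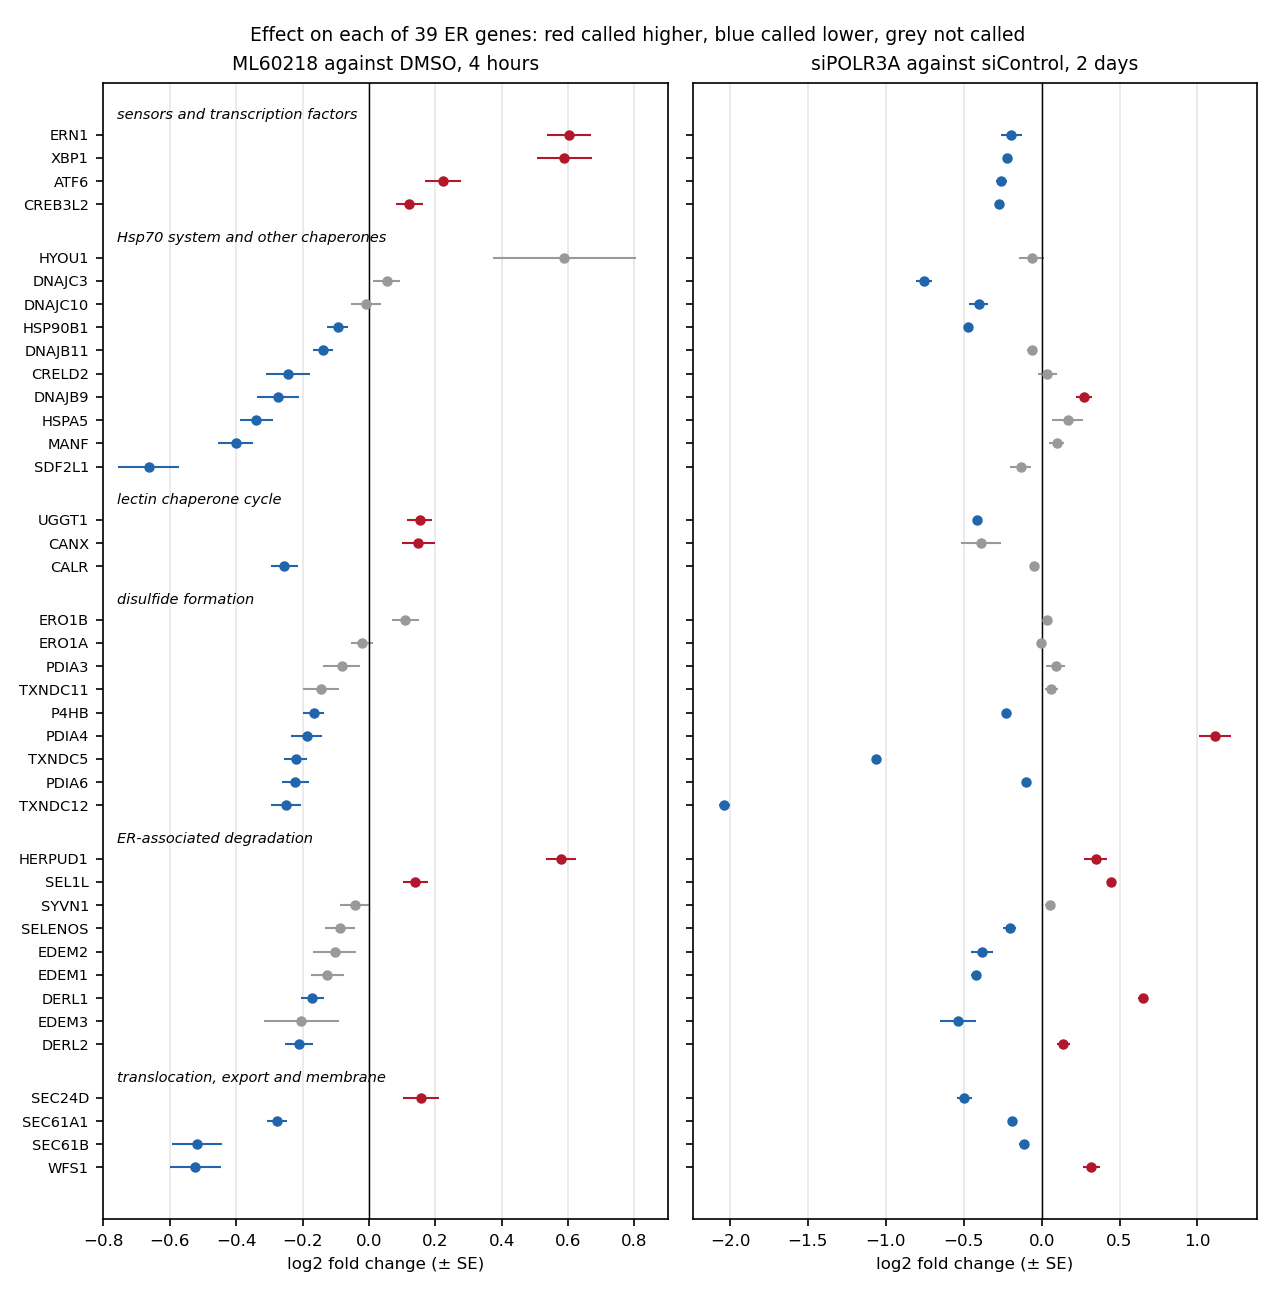
Log2 fold change of each of the 39 members, with its SE, by role, for ML60218 against DMSO (left) and siPOLR3A against siControl (right), on different horizontal scales. With ML60218 the 4 sensors and transcription factors lie right of 0 and 7 of the 10 genes of the Hsp70 system are called left of it. With siPOLR3A all 4 sensors and transcription factors lie left of 0.

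The lectin chaperones, which bind sugar-bearing chains, were divided. CALR (calreticulin) fell by 0.25 on the log2 scale (adjusted p = 0.0013), while its membrane-bound relative CANX (0.15, adjusted p = 0.0383) and UGGT1, the enzyme that tags misfolded chains for another round (0.15, adjusted p = 0.0111), were called higher. CANX held 53.4% of its reads on matched transcripts, and with neighbouring transcripts added its value was 0.05 and not called (adjusted p = 0.261).

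Of 9 genes of disulfide formation, 5 fell and none rose, but on deposited TPM none was called lower and 1 (ERO1B) higher. These were TXNDC12 (-0.25), PDIA6 (-0.22), TXNDC5 (-0.22), PDIA4 (-0.19) and P4HB (-0.17), all oxidoreductases of the protein disulfide isomerase family, with adjusted p between 0.00118 and 0.0114. The call for PDIA4 was lost in 5 of 15 alternatives. ERO1A (-0.02, adjusted p = 0.671) and ERO1B (0.11, adjusted p = 0.0577), the oxidases that recharge them, and TXNDC11 (-0.15, adjusted p = 0.057) were not called. PDIA3, the isomerase that works with the lectins, had 7.43% of its reads on matched transcripts and was not called (-0.08, adjusted p = 0.282). With neighbouring transcripts added it was called lower, at -0.37 ± 0.08 (adjusted p = 0.00949).

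Degradation genes were mixed. HERPUD1, a membrane organizer of the degradation complex on chromosome 16 (56932048 to 56944863, plus strand), rose from 44.8, 43.6 and 46.0 CPM to 63.6, 69.3 and 67.9 CPM. The 2 groups were well apart, and its adjusted p was the lowest of the members (0.58 ± 0.05, adjusted p = 8.1e-05). SEL1L, the scaffold of the same complex, was called higher by 0.14 (adjusted p = 0.0141).

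DERL2 (-0.21) and DERL1 (-0.17), which form part of the channel out of the ER, were called lower (adjusted p = 0.00405 and 0.00353). The ubiquitin ligase SYVN1 (-0.04), the mannosidase-like EDEM1 (-0.13), EDEM2 (-0.10) and EDEM3 (-0.20), and SELENOS (-0.09) were not called. EDEM1 is a classic XBP1 target, and its adjusted p was 0.0716.

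Among genes of entry, export and the membrane, SEC61B, a subunit of the channel through which chains enter the ER, stood at 67.2, 67.5 and 70.9 CPM in DMSO and at 52.6, 49.2 and 42.0 CPM in ML60218 (-0.52 ± 0.08, adjusted p = 0.00132). WFS1, an ER membrane protein that ER stress induces in many cells, was at 22.9, 22.1 and 20.8 CPM against 16.3, 15.9 and 13.6 CPM (-0.52 ± 0.08, adjusted p = 0.000932). In both genes every treated library was below every control.

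SEC61A1, the channel's core subunit, fell by 0.28 on the log2 scale (adjusted p = 0.000266). SEC24D, a coat protein of vesicles that leave the ER, stood at 43.1, 42.6 and 43.0 CPM against 43.8, 49.7 and 49.97 CPM. The treated libraries were all higher, replicate 1 only just, and the call (0.16 ± 0.05, adjusted p = 0.0427) was lost in 8 of 15 alternatives.

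Grouped by the arm that general knowledge assigns them to, 3 of 12 members that lean on ATF6 were higher (XBP1, HERPUD1 and SEL1L) and 8 lower, with a median log2 fold change of -0.20. Of 10 that lean on XBP1, 1 was higher (SEC24D) and 5 lower, with a median of -0.14. On deposited TPM these splits were 4 higher and 3 lower, and 0 higher and 1 lower (SEC61B). Of the 10 members with an ERSE or ERSE-II, 3 were called higher (CANX, HERPUD1 and XBP1), 5 lower (CALR, CRELD2, HSP90B1, HSPA5 and SDF2L1) and 2 not called. Beside these small counts, 18.1% of all genes tested were called higher and 20.9% lower. On deposited TPM 4025 of 15451 genes were called in either direction.

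In this comparison ATF6, ERN1, HERPUD1 and XBP1 (higher) and HSPA5, MANF, SDF2L1, SEC61B and WFS1 (lower) were called under all 15 alternatives. The count of higher members was 5 without DMSO replicate 2 and 4 without DMSO replicate 3, and on deposited TPM the split was 10 higher and 5 lower, where the median of all genes itself stood at 0.11.

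**Figure D3:**
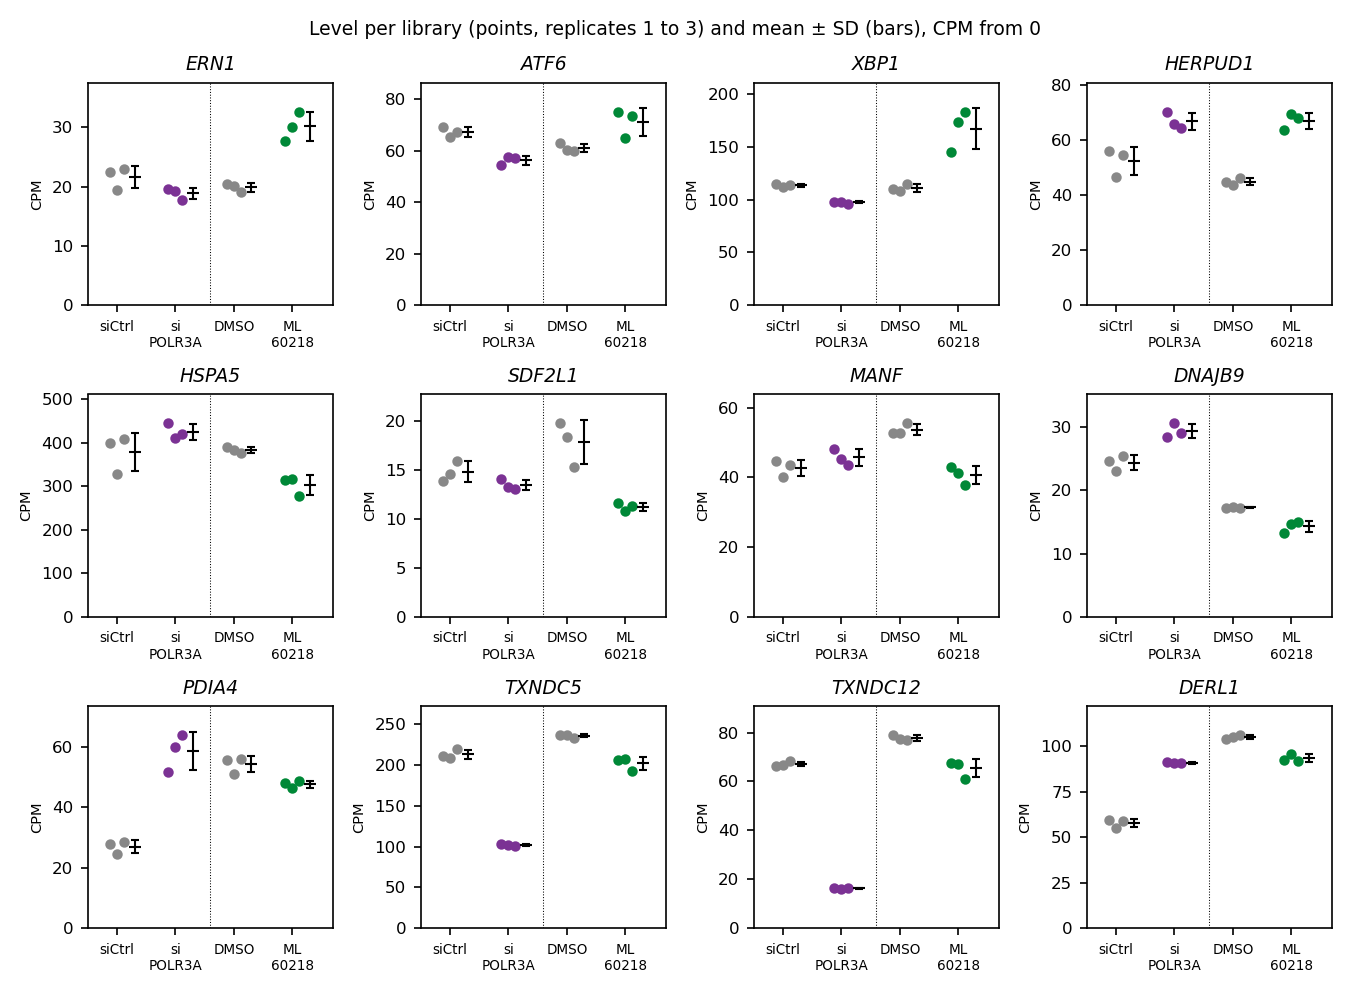
Level of 12 members in each library (points, CPM, axes from 0) with the mean and SD of each group of 3 (bars); the dotted line separates the siRNA experiment from the inhibitor experiment. ERN1, XBP1 and HERPUD1 stand higher in ML60218 than in DMSO, HSPA5, SDF2L1 and MANF stand lower, and TXNDC12 and TXNDC5 stand lower in siPOLR3A.

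XBP1 total mRNA rose with ML60218, but the spliced form did not rise with it. The spliced form took 16.1%, 19.5% and 17.7% of XBP1 reads in the DMSO libraries and 4.38%, 3.85% and 8.30% in the ML60218 libraries. The means were 17.8% ± 1.7 and 5.51% ± 2.43 (SD, n = 3 each), and the groups did not overlap. The difference of -12.3 percentage points had p = 0.1 in the two-sided exact permutation test over samples, the smallest that 3 against 3 allows.

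The level of the main unspliced form went from 63.6, 58.8 and 61.7 TPM to 96.3, 125 and 131 TPM. That of the spliced form went from 14.4, 16.9 and 15.7 TPM to 5.26, 5.82 and 13.9 TPM. Every treated library was above the controls for the unspliced form and below them for the spliced form, with ML60218 replicate 3 just below. In a fit over single transcripts, added after the data were seen, the unspliced form was called higher (0.79 ± 0.10, adjusted p = 0.0319) and the spliced form was not called (-1.07 ± 0.37, adjusted p = 0.209), beside 2.09% of 70417 transcripts called.

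In the siRNA experiment the spliced share was 25.8%, 14.8% and 24.5% in siControl and 26%, 21.4% and 29.5% in siPOLR3A, and the groups overlapped. The difference of 3.92 percentage points had p = 0.4 in the exact permutation test and was 0.475 points without siControl replicate 2. Neither form was called in the fit over single transcripts, beside 11.3% called of 69805.

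The shares rest on how reads were assigned between transcripts by the authors' quantifier, not on reads counted across the splice junction. The deposited table names a later version of the spliced transcript (1791 bases) than the annotation used here (1131 bases). The 2 forms also differ at their ends, so a change in end use and a change in splicing cannot be told apart from these values.

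**Figure D4:**
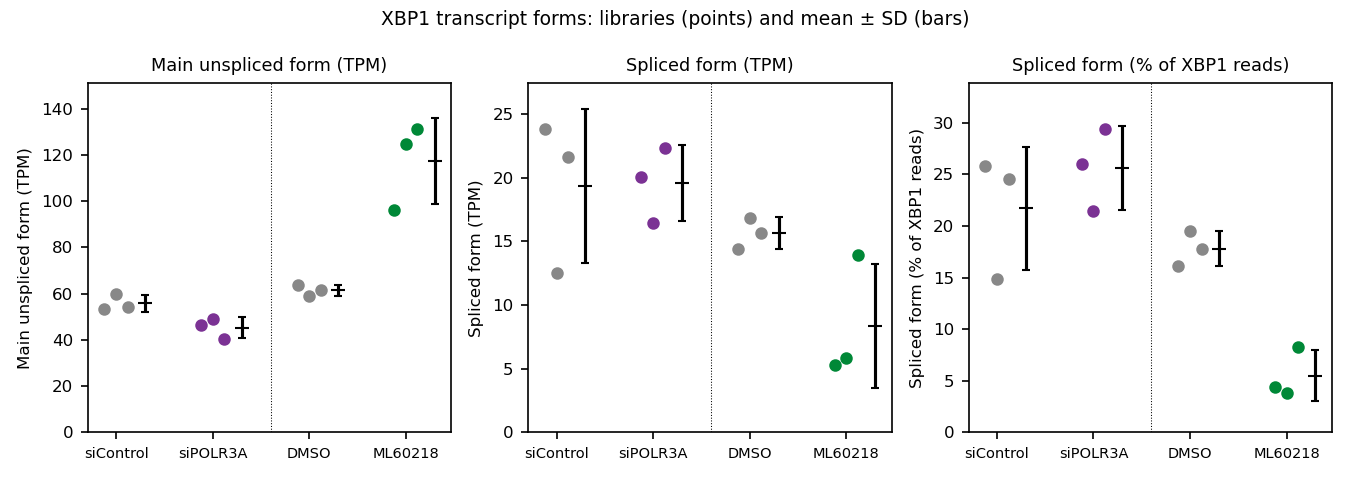
Level of the main unspliced form of XBP1 (left, TPM), of the spliced form (middle, TPM) and the spliced share of XBP1 reads (right, percent) in each library (points), with group means and SD (bars, n = 3). The 3 ML60218 libraries lie between 3.85% and 8.30% spliced, below the 3 DMSO libraries at 16.1% to 19.5%, while the siRNA groups overlap.

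Genes of the pathway outside the members were read from lists. The output of PERK and the integrated stress response rose with ML60218: 12 of 14 tested genes were called higher and 1 lower, with a median log2 fold change of 1.01. CHAC1, a glutathione-degrading enzyme, rose by 3.15 ± 0.11 and the transcription factor ATF3 by 2.28 ± 0.22. DDIT3 (CHOP) stood at 6.48, 7.10 and 7.31 CPM in DMSO and at 26.5, 32.4 and 30.8 CPM in ML60218 (2.10 ± 0.09, adjusted p = 1.54e-06), with the 2 groups far apart.

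PPP1R15A, which helps remove the phosphate from eIF2α, rose by 1.11 ± 0.18 (adjusted p = 0.00762). ATF4 mRNA, whose control is largely at translation, was not called (0.14 ± 0.09, adjusted p = 0.257), and ATF5 was the 1 lower call (-0.66 ± 0.07). EIF2AK3, the mRNA of PERK itself, was not called (0.19, adjusted p = 0.141). Of 8 other sensors and activators, CREB3L4 was higher (0.49) and MBTPS1, a protease that releases ATF6, lower (-0.17).

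Lower calls outnumbered higher ones in the rest of the ER machinery. Of 84 tested genes of other degradation, other folding, translocation and glycosylation, and vesicle export, 9 were called higher and 45 lower (10.7% and 53.6%). Their median was -0.12. On deposited TPM 18 were called lower, and the excess over higher calls was far smaller. Genes of the translocon, signal peptidase and glycosylation were lower in 23 of 27, led by DAD1 (-0.63) and SEC61G (-0.59), and higher in 1. On deposited TPM 0 of this list were higher and 9 lower. Other folding genes were lower in 10 of 25 and higher in 3, with SDF2 at -0.51 and FKBP2 at -0.40. On deposited TPM this split turned round, with 8 higher and 6 lower.

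Vesicle export genes were lower in 8 of 16 and higher in 1, with SEC24C at -0.34 and SAR1A at -0.30. On deposited TPM 2 of them were higher and 2 lower. Other degradation genes were 4 higher and 4 lower of 16, with the ATPase VCP at -0.36 and the ligase RNF139 at 0.32. On deposited TPM these counts were 4 and 1. Of 8 transcripts reported to be cut by IRE1, 2 were lower (SCARA3 -0.41 and BLOC1S1 -0.26) and none higher, a share near the 20.9% of all genes. On deposited TPM 1 of the 8 was higher (HGSNAT) and 0 lower.

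The cytosolic heat shock genes, taken for contrast, also fell with ML60218: 10 of 11 tested were called lower and none higher, and on deposited TPM 6 were lower. HSPA8, the constitutive cytosolic Hsp70, stood at -1.16 ± 0.20 (adjusted p = 0.0126). HSPA1A was listed at 0 in the 3 ML60218 libraries and at 0.248 to 0.611 CPM in DMSO; it shares reads with the near-identical HSPA1B, so no fold is given for it. These falls stood beside those of the ER chaperones, and their part in them was not tested.

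**Figure D5:**
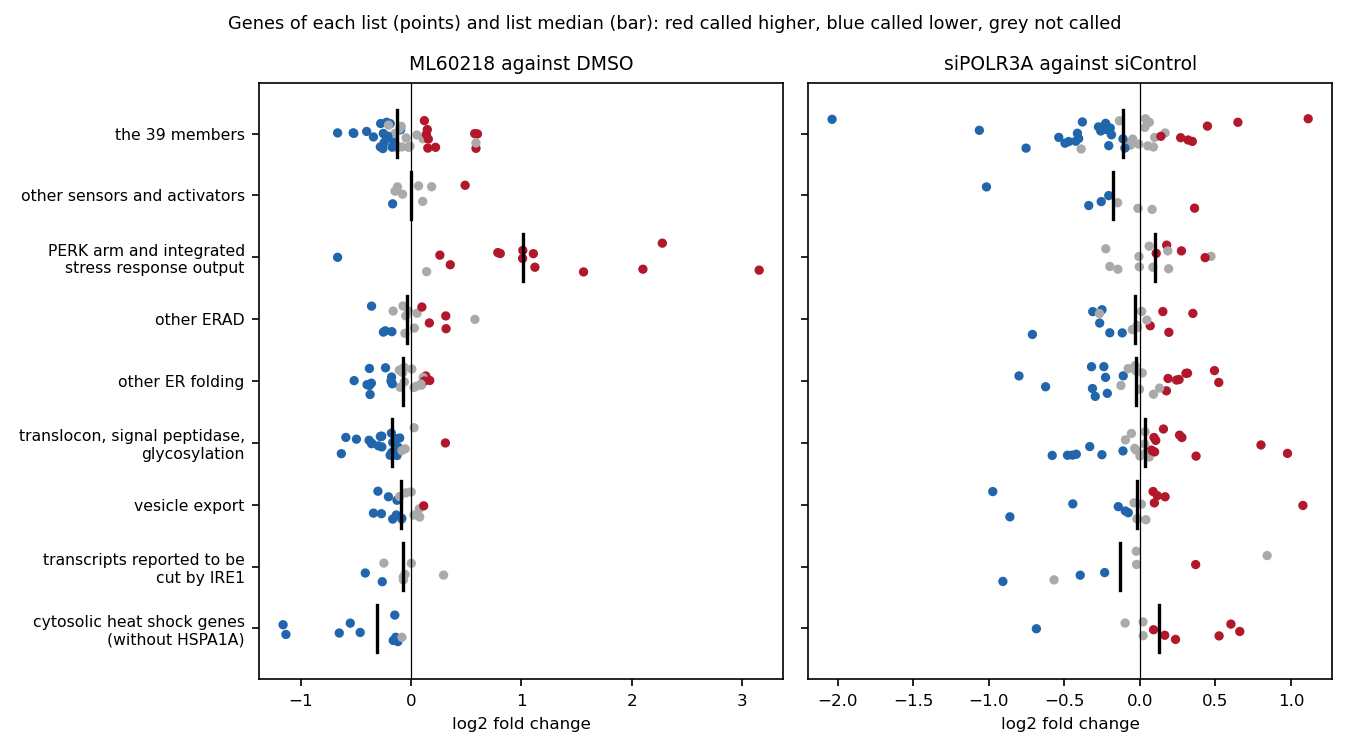
Log2 fold change (horizontal axis) of each tested gene of the members and of the 8 other lists (points) with the list median (bar), for ML60218 against DMSO (left) and siPOLR3A against siControl (right). HSPA1A is left out of the points and the median of the heat shock list. With ML60218 the integrated stress response genes lie around a median of 1.01, while the members, at -0.12, and the other ER lists lie near or below 0.

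The second comparison asked how the same genes stood 2 days after POLR3A knockdown. The disulfide enzymes TXNDC12 and TXNDC5 fell and PDIA4 rose at least 2-fold, all 4 sensors and transcription factors fell, and HSPA5 did not pass the test. In all, 7 of 39 members were called higher, 19 lower and 13 not. Over all 15394 genes tested, 56.6% were called, 27.4% higher and 29.2% lower. The members' share of higher calls was 17.9% and of lower calls 48.7%, and their median log2 fold change was -0.11. These shares were again not matched for level. Treated and control libraries did not overlap in 63.45% of all genes tested, so groups that lie apart were common here too. With upper quartile scaling the split was 11 higher and 16 lower, and with total counts 10 and 16.

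Disulfide enzymes held the 3 changes past 2-fold. TXNDC12, a thioredoxin-like ER protein on chromosome 1 (52020131 to 52056171, minus strand), stood at 66.3, 66.9 and 68.2 CPM in siControl and at 16.4, 16.1 and 16.5 CPM in siPOLR3A (-2.04 ± 0.04, adjusted p = 4.29e-14). TXNDC5, another isomerase of the family, went from 211, 208 and 219 CPM to 103, 102 and 100 CPM (-1.06 ± 0.03, adjusted p = 9.71e-13). In both genes the libraries of each group lay close together and the groups far apart.

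PDIA4, a disulfide isomerase and common ATF6 target, rose from 28.0, 24.6 and 28.4 CPM to 51.5, 60.0 and 63.9 CPM (1.11 ± 0.10, adjusted p = 0.000311). TXNDC12 overlaps KTI12 and a further gene on its strand, and TXNDC5 overlaps the readthrough gene BLOC1S5-TXNDC5, so reads of these genes may be split between them. P4HB (-0.23) and PDIA6 (-0.10) were also called lower, and PDIA3, ERO1A, ERO1B and TXNDC11 were not called.

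All 4 sensors and transcription factors were lower. ATF6 stood at 69.4, 65.4 and 67.4 CPM in siControl and at 54.4, 57.5 and 57.0 CPM in siPOLR3A (-0.26 ± 0.03, adjusted p = 1.97e-05). XBP1 went from 115, 112 and 113 CPM to 97.9, 98.0 and 96.3 CPM (-0.22 ± 0.03, adjusted p = 5.52e-06). Neither gene's groups overlapped.

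ERN1 was at 22.4, 19.4 and 23 CPM against 19.6, 19.3 and 17.8 CPM. Its groups overlapped through siControl replicate 2, and its call (-0.20 ± 0.07, adjusted p = 0.0242) was lost in 8 of 15 alternatives. CREB3L2 was lower at -0.27 (adjusted p = 5.88e-07).

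Of the marker chaperones DNAJB9 was called higher, and HSPA5 and SDF2L1 were not called. HSPA5 stood at 398, 328 and 407 CPM in siControl and at 444, 410 and 418 CPM in siPOLR3A. The treated libraries were all higher, with siControl replicate 2 well below the other controls, and the difference was not called (0.17 ± 0.10, adjusted p = 0.23). SDF2L1, at 13.8, 14.6 and 15.9 against 14.1, 13.3 and 13.1 CPM, was not called (-0.14, adjusted p = 0.097), with overlapping groups.

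MANF, at 44.6, 40.0 and 43.6 CPM in siControl against 48.2, 45.3 and 43.6 CPM, was not called either (0.10, adjusted p = 0.102). DNAJB9 rose from 24.7, 23 and 25.4 CPM to 28.5, 30.6 and 29 CPM (0.27 ± 0.05, adjusted p = 0.000442). It overlaps THAP5 and PNPLA8 on the opposite strand, and the strand setting of the counting is not given in the sources used here.

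DNAJC3 (p58IPK), a cochaperone known for restraining PERK, fell from 45.5, 40.0 and 44.9 CPM to 26.2, 26.4 and 24.8 CPM (-0.75 ± 0.05, adjusted p = 2.69e-08). The 3 knockdown libraries all lay far below the controls. HSP90B1 (-0.47) and DNAJC10 (-0.40) were lower, and HYOU1, DNAJB11 and CRELD2 were not called. Of the lectin group UGGT1 was lower (-0.41), CALR was not called, and CANX was not called (-0.39, adjusted p = 0.0581). CANX was called lower with neighbouring transcripts added (-0.25, adjusted p = 0.00138) and on deposited TPM.

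Degradation genes held 4 higher and 4 lower calls of 9. DERL1 rose from 59.3, 55.3 and 59.0 CPM to 91.2, 90.6 and 90.6 CPM (0.65 ± 0.03, adjusted p = 7.94e-10). SEL1L rose from 67.9, 65.5 and 67.7 CPM to 91.6, 93.5 and 89.1 CPM (0.45 ± 0.03, adjusted p = 1.98e-08). Both genes had groups that were well apart, and DERL2 was higher by 0.14.

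HERPUD1 rose from 56.1, 46.7 and 54.5 CPM to 70.2, 65.8 and 64.2 CPM (0.35 ± 0.07, adjusted p = 0.00764). EDEM3 fell from 54.8, 59.8 and 49.1 CPM to 36.7, 33.9 and 42.2 CPM (-0.54 ± 0.11, adjusted p = 0.0127). The groups of neither gene overlapped; EDEM3 had 39.6% of its reads on matched transcripts, and with neighbours added its value was -0.29 (adjusted p = 1.58e-08). EDEM1 (-0.42), EDEM2 (-0.38) and SELENOS (-0.21) were the other lower calls.

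WFS1 rose from 23, 25.5 and 24.2 CPM to 30.3, 29 and 31.6 CPM (0.32 ± 0.05, adjusted p = 0.000127). SEC24D fell from 57.7, 52.4 and 57.6 CPM to 41.1, 37.4 and 40.5 CPM (-0.50 ± 0.05, adjusted p = 1.29e-06). Both sets of groups were apart. SEC61A1 was lower (-0.19), and SEC61B went from 55.6, 54.5 and 55.2 CPM to 50.5, 51.5 and 51.0 CPM (-0.11 ± 0.03, adjusted p = 0.00697).

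Of the 14 integrated stress response genes, 4 were called higher with the siRNA and none lower, with a median of 0.10. The share called higher, 28.6%, was near the 27.4% of all genes. On deposited TPM 5 were higher (ASNS, ATF4, ATF5, CEBPB and CHAC1) and 1 lower (VLDLR). The calls that follow are those of the analysis reported. ATF5 (0.43), CEBPB (0.28), ATF4 (0.18) and STC2 (0.11) were the 4, and of the 12 that rose with ML60218 CEBPB and STC2 were the 2 called higher here, while DDIT3 (0.19, adjusted p = 0.137) and PPP1R15A (0.19, adjusted p = 0.544) were not called. EIF2AK3 fell (-0.34, adjusted p = 0.00037), and of the other sensors ATF6B, the relative of ATF6, fell by 1.02 on the log2 scale while MBTPS1 rose by 0.36.

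Of the other ER machinery, 28 of 84 genes were called higher and 28 lower after knockdown (33.3% each), near the 27.4% and 29.2% over all genes. The translocon and glycosylation list had 11 higher, led by SRPRA (0.98) and SPCS3 (0.80), and 7 lower of 27. Vesicle export genes had 5 higher, among them MCFD2 (1.08), and 6 lower of 16, among them TRAM1 (-0.97). Other folding genes had 8 higher and 9 lower of 25, with SERPINH1 at -0.80 and SEC63 at -0.62.

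Other degradation genes had 4 higher and 6 lower of 16, with HERPUD2 at -0.71 and RNF139 at 0.35. Of the IRE1-cut list 1 was higher and 3 lower of 8, with SCARA3 at -0.91 and HGSNAT at -0.39. The cytosolic heat shock genes had 6 higher, DNAJA1 most (0.66), and 1 lower of 11, HSPA8 (-0.69).

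Both experiments had their own controls, so the knockdown effect minus the inhibitor effect could be tested in 1 fit of the 12 libraries. Of 39 members, 14 had a positive and 15 a negative difference, and 10 were not called. Over all 15770 genes tested, 50.9% were called, 24.5% positive and 26.4% negative. On deposited TPM the split was 9 positive and 19 negative. The sensors and transcription factors all differed in the negative direction, since they rose with ML60218 and fell with the siRNA: ERN1 by -0.79 ± 0.10, XBP1 by -0.81 ± 0.10, ATF6 by -0.48 ± 0.07 and CREB3L2 by -0.39 ± 0.05.

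Of the 10 genes of the Hsp70 system, 5 differed in the positive direction, HSPA5 by 0.51 ± 0.12 (adjusted p = 0.0044), DNAJB9 by 0.55 ± 0.08, SDF2L1 by 0.53 ± 0.12, MANF by 0.50 ± 0.08 and CRELD2 by 0.29 ± 0.09. Another 3 differed in the negative direction, DNAJC3 (-0.80), DNAJC10 (-0.39) and HSP90B1 (-0.37), as did HERPUD1 (-0.23). By their calls in the separate fits, 2 members were higher in both (HERPUD1 and SEL1L) and 7 lower in both (HSP90B1, P4HB, PDIA6, SEC61A1, SEC61B, TXNDC12 and TXNDC5). Another 6 were higher with ML60218 and lower with the siRNA (ATF6, CREB3L2, ERN1, SEC24D, UGGT1 and XBP1), and 5 the reverse (DERL1, DERL2, DNAJB9, PDIA4 and WFS1). ERO1A, ERO1B, HYOU1, PDIA3, SYVN1 and TXNDC11 were called in neither. These joint counts were not made over all genes, so they only describe the members. Over all genes tested, 39% were called with ML60218 and 56.6% with the siRNA.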

How the data were processed

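Messenger RNA libraries of HEK293T cells (4 groups of 3, grouped by the labels) were sequenced in pairs of reads after a stranded mRNA preparation. Per the submitters' processing notes, bcl2fastq 2.20, Trim Galore, DESeq2 and the build hg38 were used; the quantifier and transcript release are not given in the sources used here. The deposited table gives, per the file headers, estimated counts and TPM for each transcript, which the authors computed.

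Transcripts were joined to genes by stable identifier in GENCODE release 29 (GRCh38): 158326 of 194142 matched (81.6%), holding 91.0% to 91.6% of reads; the unmatched rest, 8.38% to 8.98%, was left out. For each gene the estimated counts of its transcripts were added and rounded to whole reads. Library totals of 37008325 to 49479476 reads put at least 367 reads behind every member. edgeR 4.0.16 (R 4.3.3) with filterByExpr (minimum count 10, total 15), TMM scaling and the robust quasi-likelihood test was fitted to all genes, 6 libraries per comparison or 12 for the difference; calls are at a Benjamini-Hochberg adjusted p under 0.05, two-sided. The fit was tested on simulated data. CPM are on TMM-scaled totals.

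Alternatives were RLE, upper quartile and total-count scaling, DESeq2 1.42.0, limma 3.58.1 on log2(TPM + 1), no filter, a replicate block, an isoform length offset, unmatched transcripts given to the gene on both sides of them in the table, and leaving out each library; the XBP1 share over its 2 main forms and the fit over single transcripts were chosen after seeing the data. Per-library values are given for ATF6, ERN1, XBP1, HSPA5, HERPUD1, DNAJB9, SDF2L1 and the 5 largest called rises and falls in each comparison (mean log2 CPM at least 1); of each other list at most 2 changes, plus EIF2AK3, ATF4, DDIT3 and PPP1R15A, are named. The library values of HYOU1, and those of MANF and SEC61B under siPOLR3A, were added after theirs were seen, as were names that complete a small count (STC2). Members and lists were chosen with earlier results of these data known. Promoter windows are from RefSeq. Protein sequences were not analysed here.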

Additional observations from a re-analysis of the deposited data

Results flagged for a closer look

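The effect of siPOLR3A and that of ML60218 differed, by the test of the difference itself in the fit over 12 libraries (edgeR, adjusted p under 0.05), in 17 of the 18 members whose library values are given by rule; EDEM3 was the exception (-0.33, adjusted p = 0.15). Most of the 18 are named for a large change in 1 comparison, which favours a difference, so the count is a description; over all members it was 29 of 39, and over all genes 50.9% were called. Values are the siPOLR3A effect minus the ML60218 effect on the log2 scale, and agent, duration and control cannot be told apart in them.

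Among sensors and XBP1 the differences were -0.48 for ATF6, -0.79 for ERN1 and -0.81 for XBP1. Among chaperones they were 0.51 for HSPA5, 0.55 for DNAJB9, 0.53 for SDF2L1, 0.50 for MANF and -0.80 for DNAJC3. Disulfide enzymes gave 1.31 for PDIA4, -1.78 for TXNDC12 and -0.84 for TXNDC5. Degradation genes gave 0.82 for DERL1, 0.31 for SEL1L and -0.23 for HERPUD1, which rose in both experiments; the call for HERPUD1 (adjusted p = 0.044) was lost in 10 of 21 alternatives. SEC24D gave -0.65, WFS1 0.85 and SEC61B 0.41.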

How the results depend on the processing

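Of the members called with ML60218, 9 of 27 were called under all 15 alternatives; with the siRNA 22 of 26 were, and for the difference 21 of 29 under 21 alternatives. Leaving out 1 library in turn gave 4 to 9 members higher with ML60218 (5 without DMSO replicate 2, 4 without DMSO replicate 3) and 15 to 20 lower. On log2(TPM + 1), 5 members and 18 genes of the other ER machinery were lower with ML60218 (18 and 45 in the analysis reported), HSP90B1 and DNAJB11 reversed to 0.0278 and 0.00461, and 9 members had a positive difference; the median of all genes stood at 0.11 there, and the members' median relative to it was -0.08, against -0.13 in the analysis reported. Also on log2(TPM + 1), 8 other ER folding genes were higher and 6 lower with ML60218 (3 and 10 in the analysis reported). Over the other ER machinery together, the excess of lower over higher calls was far smaller on that measure. Upper quartile scaling gave 11 members higher with the siRNA. The cause was not tested.

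Replicate numbers did not pair the samples: same-numbered libraries deviated with correlations of -0.05 to 0.07 with ML60218 and -0.07 to 0.04 with the siRNA. With a replicate block, 7 members were higher and 18 lower with ML60218, 7 and 19 with the siRNA, and 14 and 16 for the difference. In each experiment replicate 2 alone correlated best with its own number. The blocked test of the XBP1 spliced share gave p = 0.25 by exact permutation within pairs in both experiments, the smallest that 3 pairs allow.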
